A study of Caenorhabditis elegans with 2 samples.

Results

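ALY-1 candidate peaks were examined in the piRNA-rich regions of chromosome IV of the nematode Caenorhabditis elegans. Members were all candidate peaks, in the list called on both replicates together, whose summit lay at IV:4500001-7000000 (the central region) or in the 3.7 Mb that start at IV position 13500001 (the right region). Coordinates are on genome build ce11, which has those of WBcel235. Of the 30000 candidate peaks, 1057 (3.52%) met this rule, 547 in the central and 510 in the right region. The rest of chromosome IV held 3384. The limits were set by position and used no measured value. The Ensembl annotation bore out the name of the regions: they hold 14204 of 15363 annotated piRNA genes (92.5%), 2816 in the central and 11388 in the right region, on 35.4% of the length of the chromosome.

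The study immunoprecipitated chromatin with an antibody to GFP from early embryos of hermaphrodite worms of strain OP502, with synchronization by egg bleaching and collection at 0 hours. The strain carries the unc-119(tm4063) III allele and the transgene wgIs502, which adds ALY-1 with a GFP-FLAG tag at its C-terminus. Both samples share this genotype, stage and treatment, so there is 1 group of 2 biological replicates, and no embryos without the tagged protein were analysed here. The labels do not tie the replicates to separate days or cultures, and they name whole organisms, so the cells behind a peak are not known.

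ALY-1 is one of the worm relatives of the ALY/REF proteins, which bind newly made RNA and help to pass mRNA to the nuclear export machinery. piRNAs are small RNAs of the germline that guide the Argonaute protein PRG-1 to foreign and transposon-derived transcripts. In C. elegans most piRNA genes are short separate transcription units of RNA polymerase II, many with a conserved upstream motif, packed into clusters on chromosome IV. Their precursors are capped, are not polyadenylated, and are trimmed to the mature 21U-RNA, which usually starts with U. piRNA genes are active mainly in the germline, whereas the samples were early embryos.

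Sequences around some of the strongest peaks and at some piRNA genes are printed as examples. The following lines give the bases of the reference genome (RefSeq, WBcel235) from 50 bases before to 50 bases after the summit of 6 of the strongest peaks. Each is on the plus strand of chromosome IV, and capitals mark bases inside an annotated microRNA or tRNA gene. The windows lie at IV:14033996-14034096 (mir-52), IV:5967213-5967313 (B0350.t1, a lysine tRNA), IV:16398312-16398412 (Y65A5A.t1, an alanine tRNA), IV:6556815-6556915 (C43G2.t1, a leucine tRNA), IV:6756593-6756693 (upstream of usp-4) and IV:14872477-14872577 (between genes).
Peak at mir-52: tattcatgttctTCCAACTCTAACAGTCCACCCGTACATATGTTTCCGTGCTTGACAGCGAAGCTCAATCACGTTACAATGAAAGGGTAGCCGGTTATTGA
Peak at B0350.t1: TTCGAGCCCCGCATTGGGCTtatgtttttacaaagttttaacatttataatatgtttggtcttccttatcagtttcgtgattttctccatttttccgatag
Peak at Y65A5A.t1: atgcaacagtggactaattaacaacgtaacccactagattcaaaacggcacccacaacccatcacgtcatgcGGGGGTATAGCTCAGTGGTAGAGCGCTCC
Peak at C43G2.t1: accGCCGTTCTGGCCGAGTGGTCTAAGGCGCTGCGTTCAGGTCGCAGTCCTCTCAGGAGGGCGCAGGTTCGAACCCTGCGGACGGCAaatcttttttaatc
Peak upstream of usp-4: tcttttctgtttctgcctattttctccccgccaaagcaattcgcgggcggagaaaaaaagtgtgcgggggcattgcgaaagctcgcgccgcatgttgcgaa
Peak between genes: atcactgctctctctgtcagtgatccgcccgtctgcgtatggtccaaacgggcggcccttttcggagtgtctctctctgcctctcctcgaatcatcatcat

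For comparison, 4 piRNA genes are printed in their own direction with the 60 bases upstream. Capitals at the end mark the 21U-RNA, and capitals upstream mark the motif core CTGTTTCA. The exact core was found upstream of 34.8% of the piRNA genes of the regions, so the genes printed with it are not typical. 21ur-8742 (IV:5800300-5800380, plus strand) and 21ur-321 (IV:5843250-5843330, plus strand) lie in the 50 kb bin with most piRNA genes of the central region. 21ur-9310 (IV:16002216-16002296, minus strand) lies in the corresponding bin of the right region. 21ur-5229 (IV:5967029-5967109, plus strand) is the piRNA gene of the regions that had a summit of the thresholded list within 250 bp, and its upstream bases hold no exact match to the core.
21ur-8742: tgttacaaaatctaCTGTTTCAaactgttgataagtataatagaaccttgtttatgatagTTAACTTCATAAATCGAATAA
21ur-321: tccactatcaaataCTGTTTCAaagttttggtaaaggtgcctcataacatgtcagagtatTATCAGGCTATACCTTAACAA
21ur-9310: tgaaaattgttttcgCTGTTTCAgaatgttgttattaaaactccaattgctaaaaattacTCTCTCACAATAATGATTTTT
21ur-5229: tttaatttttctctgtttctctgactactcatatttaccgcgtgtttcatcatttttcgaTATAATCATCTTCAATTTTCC

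Candidate summits were sparser in the piRNA-rich regions than elsewhere on the chromosome. The regions held 170 summits per Mb (95% exact Poisson interval 160 to 181) against 300 per Mb (290 to 310) on the rest of IV, a ratio of 0.569. In the separate replicate lists the regions held 173 and 177 per Mb (mean 175 ± 3.08, SD, n = 2). The rest of IV held 298 and 299 per Mb (299 ± 1.25). The gap between regions and rest exceeded the spread between replicates. All intervals cover counting error only, and no test across groups was possible with 1 group.

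The regions differed from each other as well. The central region held 219 summits per Mb (201 to 238), with 216 and 230 in the replicates, and the right region 138 (126 to 150), with 144 and 141. Of the other segments, the left part of the chromosome held 355, the middle part between the regions 264 and the right end 238 per Mb. The right region was thus the sparsest of the 5 segments in the pooled and in both replicate lists, and it also has the most piRNA genes, 3078 per Mb against 1126 in the central region. In stretches of the same length at the same distance from the right end of chromosomes I, II, III, V and X, the pooled list held 378, 410, 404, 213 and 305 summits per Mb.

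**Figure D1:**
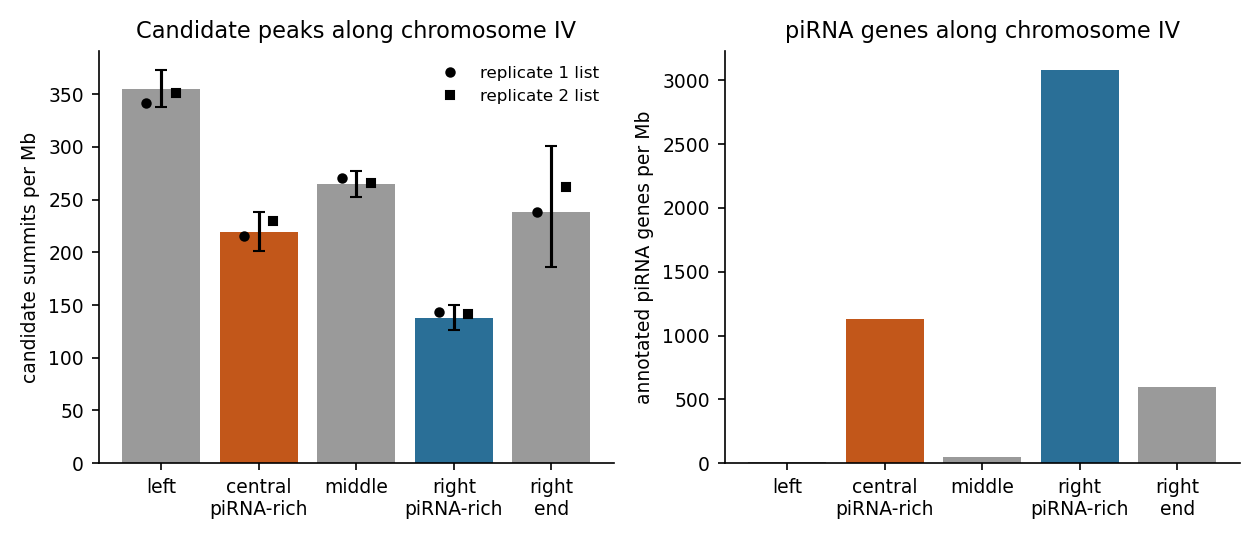
Left, candidate summits per Mb in 5 segments of chromosome IV: bars are the pooled list with exact 95% Poisson intervals, and points are the 2 replicate lists. Right, annotated piRNA genes per Mb in the same segments. The right piRNA-rich segment has the lowest bar on the left (138 per Mb) and the highest on the right (3078 per Mb).

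The regions also carry fewer protein-coding genes, 151 per Mb against 207 on the rest of IV, and less exon sequence, 20.1% against 30.8% of bases. Per 100 protein-coding genes they held 113 candidate summits, and the rest of IV held 144. That figure was 214 on the left part and 113 on the middle part, so by gene number the regions were level with the middle part. GC content was 33.0% in the regions and 35.5% on the rest of IV.

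Peak strength did not follow peak number. Peaks were ranked by the signal value, a score from the peak caller of the authors, and a higher percentile means a stronger peak within the list of 30000. The median percentile was 49.9 in the regions and 48.6 on the rest of IV. In the replicate lists the regions lay 1.53 percentile points above the rest in replicate 1 and differed from it by -0.168 points in replicate 2, so the direction was not shared. Of the peaks of the regions 109 (10.3%) were among the 3000 strongest of the pooled list, against 315 (9.31%) on the rest of IV.

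The list of peaks that passed the irreproducible discovery rate (IDR) procedure, a comparison of ranks between replicates, holds 881 of the candidates, and these are the 881 with the highest signal. Of the 1057 peaks of the regions, 27 were in it (2.55%, exact Clopper-Pearson interval 1.69 to 3.69), against 2.60% on the rest of IV and 2.94% on all chromosomes. The share was thus near the background. It was 1.83% (10 peaks) in the central and 3.33% (17 peaks) in the right region, with overlapping intervals of 0.880 to 3.34 and 1.95 to 5.28. Per Mb, the regions held 4.35 thresholded peaks and the rest of IV 7.79. Of all peaks of the regions, 60.3% (57.2 to 63.2) overlapped a peak in both replicate lists, and on the rest of IV 60.1% did.

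Within the regions, summits lay away from piRNA genes. Bases inside or within 250 bp of a piRNA gene make up 50.9% of the regions but held 17.3% of the summits (183 of 1057). This came to 58.0 summits per Mb (49.9 to 67.01) near piRNA genes and 287 per Mb (268 to 307) farther away. All bases farther than 250 bp on the rest of IV held 302 per Mb (292 to 313). The replicates gave 68.1 and 67.8 per Mb near piRNA genes against 281 and 290 farther away. With bases near piRNA genes left out, the density of the regions was 0.949 of that on the rest of IV, a comparison added after the data were seen.

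The same was seen in each region. In the right region the density was 41.4 per Mb near piRNA genes (33.5 to 50.7) and 295 farther away (267 to 325), and in the central region 102 (81.7 to 126) and 281 (255 to 307). The intervals of the near densities of the regions did not overlap. The few piRNA genes elsewhere stood in between: near them the pooled list held 154 summits per Mb (106 to 216) on the rest of IV and 212 (165 to 267) on the other chromosomes.

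By distance, density in both regions together was 38.7 per Mb inside piRNA genes, 38.4 outside them up to a distance of 100 bp and 90.6 from there to 250 bp. It was 216 from there to 500 bp, 171 to 1000 bp, 188 to 2000 bp and 398 beyond. The sparsest bases were thus those up to 250 bp, with a further step beyond 2000 bp. Lined up on the 5′ ends of the 14204 piRNA genes, density was lowest over the 100 bases just upstream, at 28.2 per Mb in the pooled list and 45.1 and 31.7 in the replicates. The next 100 bases upstream were close in the pooled list, at 29.6, with 47.2 and 48.6 in the replicates. Neighbouring piRNA genes share summits and bases, so these values are not independent. The 100 bases just upstream also had the lowest GC content of the 2000 bp on either side, 26.1%.

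**Figure D2:**
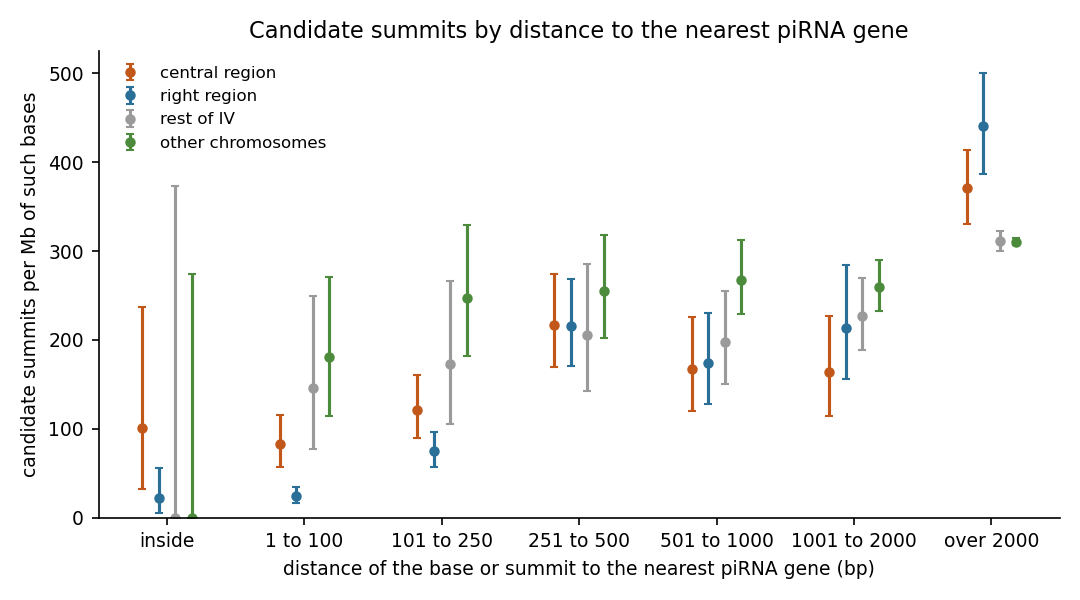
Candidate summits per Mb of bases at each distance from the nearest piRNA gene, in bp, with exact 95% Poisson intervals, for the central region, the right region, the rest of IV and the other chromosomes. In the right region the density goes from 21.8 per Mb inside piRNA genes to 441 per Mb beyond 2000 bp.

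Base composition moved with this pattern. Mean GC content of the 250 bp on either side was 30.04% for bases near piRNA genes, 36.0% for the other bases of the regions and 35.5% for the rest of IV. Candidate summits had a higher GC content than the bases around them everywhere: 36.0% near piRNA genes, 41.4% farther away and 40.7% on the rest of IV. On the rest of IV density went from 43.5 summits per Mb where GC was under 30% to 795 where it was 40% or more.

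Within classes of GC content the gap near piRNA genes was smaller than over all bases, and it was not gone. Below 30% GC there were 9.14 summits per Mb near piRNA genes (5.23 to 14.8) and 17.17 farther away (7.85 to 32.6), which overlap. At 30 to 35% GC there were 59.9 (45.7 to 77.1) and 131 (108 to 157). At 35 to 40% there were 239 (189 to 299) and 288 (254 to 327), again overlapping, and at 40% or more 365 (245 to 525) and 655 (599 to 715). In each of these 4 classes the near density was the lower in the pooled list and in both replicates, by amounts that reached beyond the counting intervals in 2 of the 4.

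Expressed as the number of summits near piRNA genes over the number given by their share of bases, the ratio was 0.340 over all bases and 0.383 and 0.395 in the replicates. Weighting by GC class moved it to 0.726, steps of 1% GC to 0.782, and gene feature alone to 0.377. These weightings were added after the data were seen. How well short reads can be placed in these regions, and how GC content acted on the libraries, was not tested.

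**Figure D3:**
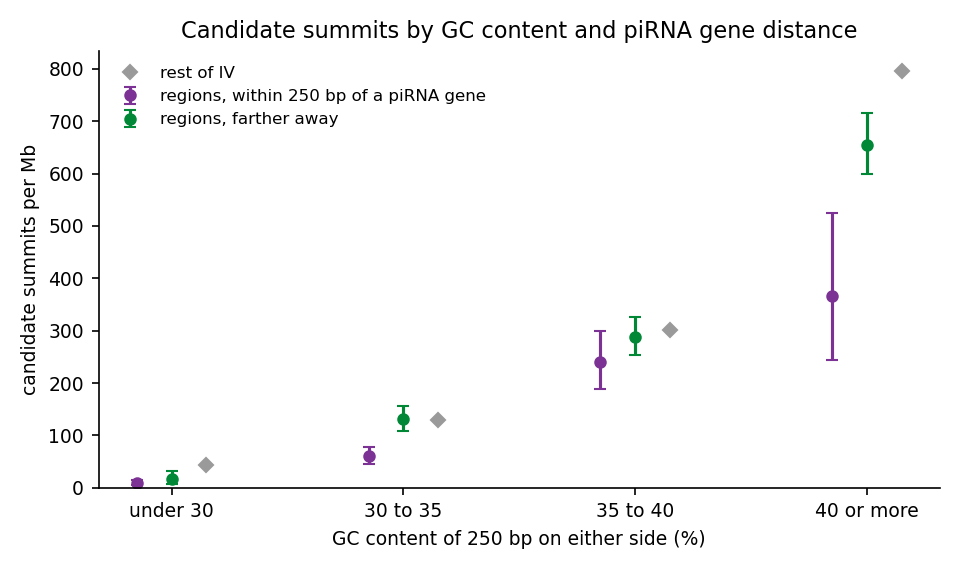
Candidate summits per Mb of the pooled list by GC content of the surrounding 250 bp on either side, for bases of the regions within 250 bp of a piRNA gene, bases of the regions farther away (both with exact 95% Poisson intervals) and bases on the rest of IV. Density goes up with GC content in all 3 sets, and at 40% or more it reads 365, 655 and 795 per Mb.

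Summits near piRNA genes were also weaker. Their median percentile was 40.8, against 53.9 farther away, in the pooled list, 41.8 against 52.5 in replicate 1 and 40.5 against 52.8 in replicate 2. Of those near, 10 of 183 (5.46%) were among the 3000 strongest, and of the others 99 of 874 (11.3%). A peak of both replicates overlapped 47.0% (39.6 to 54.5) of the near peaks and 63.0% (59.7 to 66.3) of the others. In the GC classes the median percentile near piRNA genes was 30.1, 33.4, 42.6 and 57.9 from lowest to highest GC, against 33.4, 38.3, 47.2 and 63.9 farther away.

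In bins of 50 kb, more piRNA genes went with fewer candidate summits. Spearman's rho over the 349 bins of IV was -0.60 for the pooled list and -0.60 and -0.59 for the replicates, given as a description because bins share libraries and base composition. Over the 124 bins of the regions alone it was -0.52, with -0.34 over the 50 bins of the central and -0.52 over the 74 bins of the right region. Central bins with more than 60 piRNA genes held 9.82 ± 8.33 summits (SD over 22 bins), and those with 21 to 60 held 8.13 ± 5.11 (16 bins). Over the 225 bins of the rest of IV, where piRNA genes are few, rho was -0.44. Between piRNA genes and thresholded summits rho was weaker, at -0.18 over IV and -0.09 over the regions. It was -0.25 over the central region, -0.02 over the right region and -0.07 over the rest of IV. Bins with no piRNA gene held 18.2 ± 7.40 summits (SD over 100 bins), and those with more than 60 held 6.90 ± 6.52 (90 bins). GC content followed both measures, with rho 0.67 to summits and -0.70 to piRNA genes. The number of protein-coding genes had a rho of 0.12 to summits.

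The bins richest in piRNA genes held few peaks but not none. In the central region IV:5800001-5850000 had 124 piRNA genes and 13 summits, IV:5600001-5650000 had 120 and 6, and IV:5100001-5150000 had 115 and 6. In the right region IV:16000001-16050000 had 269 piRNA genes and 9 summits, IV:14950001-15000000 had 241 and 8, and IV:14350001-14400000 had 234 and 4. None of these bins except the one at 14950001, with 1, held a thresholded summit.

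Single bins departed from the trend. The bin of the central region with most summits, IV:5950001-6000000, had 38 (32 and 41 in the replicates) beside 88 piRNA genes, at a GC content of 37.5%. In the right region the bin with most summits, IV:14750001-14800000, had 29 (26 and 23) beside 53 piRNA genes, at 37.1% GC. The bin of the right region with most thresholded peaks, IV:16350001-16400000, had 5 of them beside 173 piRNA genes, and in the central region IV:5050001-5100000 had 2 beside 55. Of the bins with no summit, 1 lay in the central region, 9 in the right region and 1, without a piRNA gene, on the rest of IV.

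**Figure D4:**
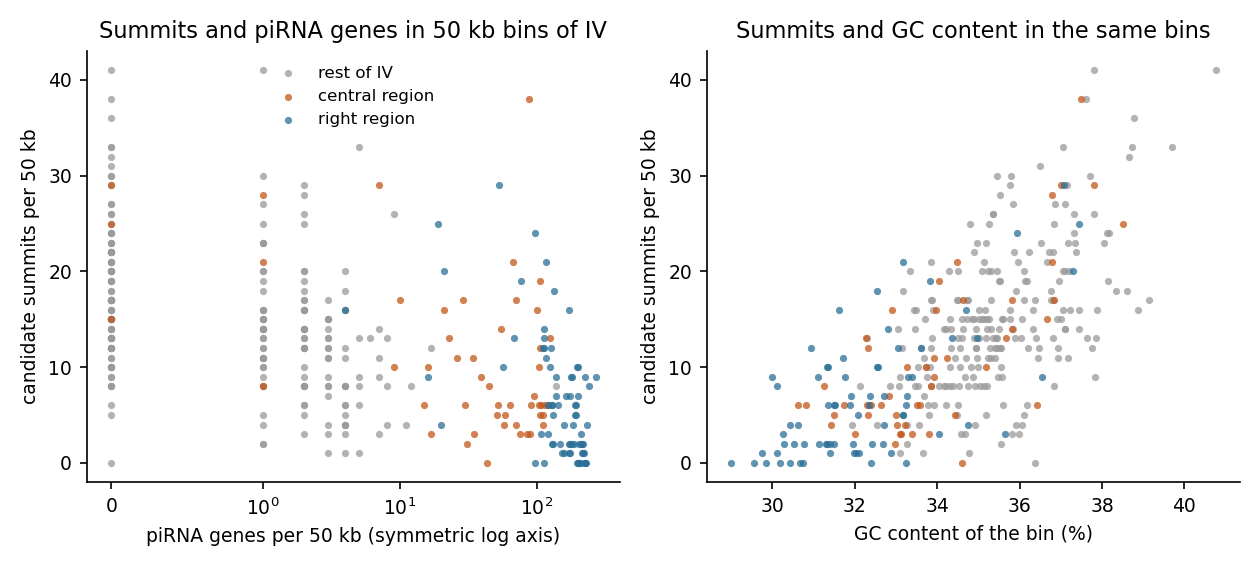
Candidate summits in each 50 kb bin of chromosome IV against the number of annotated piRNA genes in the bin (left, symmetric log axis) and against its GC content in percent (right). Points are bins, coloured by region, and bins with more than 60 piRNA genes lie mostly at low counts and low GC content, with 1 bin of the central region at 38 summits.

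The 27 thresholded peaks of the regions covered 24 separate stretches, since some were neighbouring summits of 1 enriched stretch. They lay mainly at genes other than piRNA genes. Summits were assigned in order: tRNA, snoRNA, snRNA or microRNA genes within 250 bp, then other non-coding RNA genes, then promoters. By this order 9 lay at tRNA genes (33.3%, 16.5 to 54.0), 2 at the microRNA gene mir-52 and 3 at other non-coding RNA genes. Of the 9, ranks 94, 135, 613 and 625 had another non-coding RNA gene nearer than the tRNA gene. A further 5 lay in promoters of protein-coding genes and 8 elsewhere. On the rest of IV tRNA, snoRNA and snRNA genes together took 22 of 88 (25%, 16.4 to 35.4), so the intervals overlap. All 27 overlapped a peak in both replicates, as did all 88 on the rest of IV. The list was selected by comparing replicates, so this overlap is no separate result. Among the 881 strongest in each replicate were 13 of the 27, against 47 of 88 on the rest of IV.

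The strongest peak of the regions was at mir-52, a microRNA of the mir-51 family, which is abundant in worm embryos. It lay at IV:14033774-14034198 and ranked 53 of 30000, with a signal of 243 in the pooled list, 84.5 in replicate 1 (rank 94) and 171 in replicate 2 (rank 29). Its summit fell inside the annotated gene, as the first printed sequence shows, and also inside the non-coding RNA gene Y37A1B.335. A second summit 139 bp beyond mir-52 ranked 153, with a pooled signal of 156. The nearest piRNA gene lay 1155 bp from the stronger summit.

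The next peak, at IV:5967021-5967504, ranked 94 with a signal of 198 (96.9 in replicate 1, 98.2 in replicate 2, ranks 65 and 139). Its summit lay 31 bp from B0350.t1, a lysine tRNA gene, and 154 bp from 21ur-5229, and it was the single thresholded summit within 250 bp of a piRNA gene in the regions. The summit also fell inside the non-coding RNA gene B0350.73. The tRNA gene and the piRNA gene both lie within the peak, whose width does not separate the 3 genes. In the printed window the tRNA gene ends and AT-rich sequence follows.

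Most of the other tRNA peaks sat together in the right region. Within 18.7 kb, at Y7A9D and Y65A5A tRNA genes, there were 6 thresholded summits among 13 candidate summits, beside 7 tRNA genes and 53 piRNA genes. The first of them, near the valine tRNA gene Y7A9D.t3 (IV:16382122-16382605), ranked 135 with ranks of 125 and 153 in the replicates. At Y65A5A.t1 (IV:16398120-16398603) the rank was 148, with 733 and 86 in the replicates, and a neighbouring summit ranked 582. The histidine tRNA genes Y7A9D.t1 and Y65A5A.t4 had summits ranked 613 and 625, and 826. Outside this stretch C43G2.t1 (IV:6556623-6557106) had its summit inside the gene and ranked 248 (324 and 291 in the replicates), and the glycine tRNA gene Y51H4A.t4 ranked 824.

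Counted over genes, tRNA genes of the regions were marked no more often than others. A thresholded summit lay within 250 bp of 7 of 41 tRNA genes (17.1%, 7.15 to 32.1), against 11 of 30 (36.7%, 19.9 to 56.1) on the rest of IV and 27.6% of the 612 tRNA genes on all chromosomes. A candidate summit lay there for 21 of 41 and 18 of 30. Of snoRNA genes, which guide RNA modification, 0 of 18 had a thresholded summit, which by the limit of 3 counts allows a share of up to 16.7% (exact upper limit 18.5%), against 10 of 41 on the rest of IV. Of genes annotated as small nuclear RNA (snRNA), it was 0 of 16 (up to 18.8% by the same limit, exact upper limit 20.6%) and 0 of 25. Of microRNA genes it was 1 of 19 and 2 of 31. These intervals are wide and overlap.

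Of the 14204 piRNA genes of the regions, 275 (1.94%, 1.72 to 2.18) had a candidate summit within 250 bp and 1 a thresholded one. The candidate share was 4.44% in the central region, 1.32% in the right region, 7.65% (39 of 510) on the rest of IV and 10.2% (66 of 649) on the other chromosomes. In the right region 0 of 11388 piRNA genes had a thresholded summit, which by the limit of 3 counts allows a share of up to 0.0263% (exact upper limit 0.0324%). On the rest of IV it was 0 of 510 (up to 0.588% by the same limit, exact upper limit 0.721%). On the other chromosomes it was 2 of 649 (0.308%, 0.0373 to 1.11). Neighbouring piRNA genes share summits, so these genes are not independent.

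Several of the remaining strong peaks lay at protein-coding genes. Rank 151 (IV:6756401-6756884, replicate ranks 131 and 211) lay in the promoter window of usp-4, named for a ubiquitin-specific protease, and 201 bp from the non-coding RNA gene H34C03.18. Rank 339 (427 and 397) lay in the promoter window of hil-7, a linker histone gene, and 55 bp from the non-coding RNA gene C01B10.45. Rank 569 (1855 and 344) lay in the promoter window of lin-66, a gene of the developmental timing pathway. Exons held rank 375 (399 and 562) at sfa-1, which encodes the splicing factor SF1, and rank 554 (769 and 736) at sec-61.A, a subunit of the protein translocation channel. Rank 485 (1015 and 446) was in an exon where atln-2, an atlastin gene, and dpy-4, a cuticle collagen gene, overlap. An intron of Y57G11C.22 held rank 263 (270 and 363).

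The other named peaks were between genes, at rank 294 (IV:14872285-14872768, replicate ranks 308 and 643) and at rank 517 (436 and 1813), 2105 bp from pygo-1, the worm relative of the Wnt pathway gene pygopus. The rank-294 summit was 267 bp from 21ur-9510 and its printed window has a GC content of 55.4%. For comparison, the 3 strongest peaks on the rest of IV were at the histone genes his-31 and his-32 (rank 2, signal 642), at mir-51 (rank 3, signal 552) and at his-59 and his-60 (rank 10, signal 352). The highest signal of the regions, 243, was below each of these.

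By absolute difference in rank, which can be large only where a peak is weak in a replicate, 3 members of the list differed most. By the ratio of ranks the order was another. Rank 148 at Y65A5A.t1 (733 and 86, log2 ratio 3.09) then stood ahead of rank 824 (2.87) and rank 878 (-1.93). Rank 694, in the promoter window of F29B9.11, was at rank 7101 in replicate 1 and 337 in replicate 2. Rank 824, at the tRNA gene Y51H4A.t4, was at 3600 and 492, and rank 878, at the promoter of tlp-1, a zinc finger transcription factor gene, at 569 and 2162. The thresholded summits had a median GC content of 44.1% (36.3 to 62.1), and those on the rest of IV 45.0%.

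**Figure D5:**
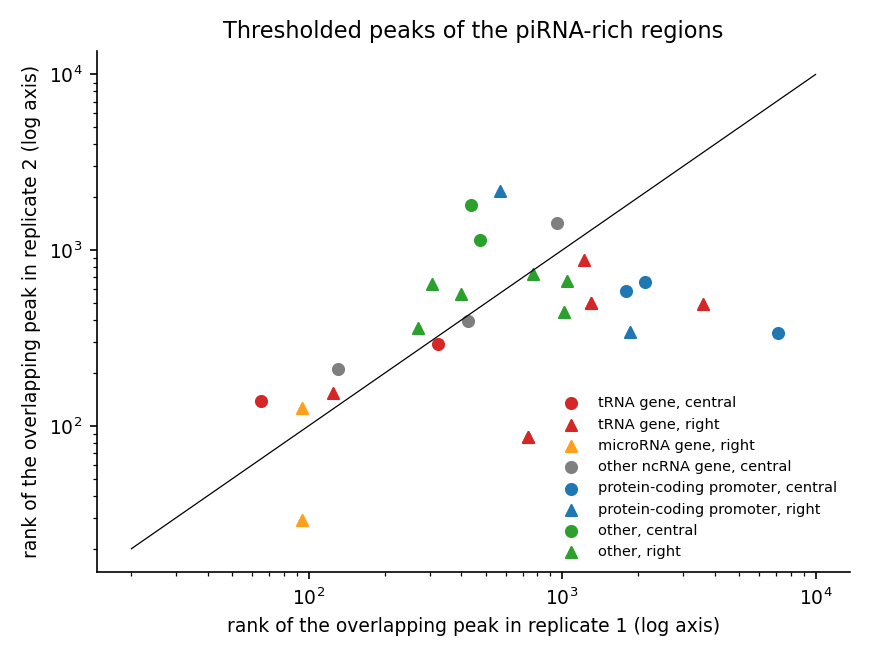
Rank of the overlapping peak in replicate 1 and replicate 2 (log axes, rank 1 is strongest) for the 27 thresholded peaks of the regions. Colours give the gene class assigned in the order stated in the text, which need not be the nearest gene. Circles are the central and triangles the right region. The line marks equal ranks, and the promoter peak at rank 7101 in replicate 1 lies farthest from it.

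Below the thresholded list, the strongest summit within 250 bp of a piRNA gene ranked 883, in an intron of Y105C5A.1 and 111 bp from 21ur-7423. Its signal of 85.5 was just under the 85.6 of the weakest thresholded peak of the regions, at tlp-1. The next, at rank 1637, was 63 bp from 21ur-3160 and 51 bp from the tRNA gene F02H6.t1. Further ones lay at rank 2300 in an intron of unc-5, the netrin receptor gene, and at rank 2351 in an exon of lam-1, a laminin gene.

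The upstream motif of piRNA genes was sought as the exact letters CTGTTTCA on the strand of the gene. It was found in the 60 bases upstream of 4944 of the 14204 piRNA genes of the regions (34.8%), at a median of 38 bases before the gene. Windows of that length held it on a given strand in 2.10% of the regions and 0.221% of the rest of IV. On either strand it was found in 60 of 1057 windows of 150 bp on either side of a candidate summit of the regions (5.68%, 4.36 to 7.25), against 20.9% of all windows of that length there. On the rest of IV the shares were 1.36% and 2.32%.

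Bases near piRNA genes with the core were not sparser in summits than those near piRNA genes without it. Near genes with the core alone there were 88.3 summits per Mb (68.0 to 113), and near genes without it 60.9 (49.1 to 74.6). Both regions are pooled here, and neither region nor GC content was held equal. The core was found for 39.7% of piRNA genes in the central and 33.6% in the right region. Near density there was 102 and 41.4 per Mb. A match to these letters is a description of sequence, not a site of binding.

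The genes that make and use piRNAs lie mostly outside the regions and were described from a list of 44, of which 42 were found in the annotation. A thresholded summit lay in or within 1000 bp of 1 of the 42 (2.38%, 0.0603 to 12.6), against 4.38% of all protein-coding genes. The gene was tofu-6, which acts in processing of piRNA precursors. Its summit, 31 bp upstream of the annotated 5′ end, ranked 714 with a signal of 91.1. A candidate summit was found for 32 of the 42 (76.2%, 60.5 to 87.9), against 63.4% of all protein-coding genes. The length of these genes and their expression in embryos were not taken into account.

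By role, 11 of 14 genes for transcription of piRNA genes had a candidate summit, 7 of 12 for processing, and 14 of 16 for Argonautes and downstream silencing. The gene of the piRNA Argonaute itself, prg-1, had none, and neither did hrde-2. The transcription genes without one were snpc-1.3, fkh-3 and fkh-4, and the processing genes tofu-2, tofu-7, slfl-4, pid-1 and parn-1. Of the transcription genes, snpc-4, which encodes a factor bound at piRNA clusters, had its best summit at rank 2447, ints-11, an Integrator subunit, at 3882 and prde-1 at 4690. Of the processing genes, pid-3 ranked 3789 and tofu-1 4109. Downstream, simr-1 ranked 2311, pid-2 2684, deps-1 3199, znfx-1 3236, rde-12 3569 and pgl-1 3915. These are among the stronger candidates but none was in the thresholded list. Summits counted for ints-11 and pid-3 lay inside the neighbouring genes cdc-48.2 and Y23H5A.2, and that of prde-1 in the overlapping gene glb-14. The P granule gene pgl-1 is at the edge of the central region, and its summit is one of the members.

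The share of protein-coding genes with a candidate summit was smaller inside the regions than elsewhere on IV. A candidate summit lay in or within 1000 bp of 424 of 938 (45.2%, 42.0 to 48.5), against 64.7% (62.7 to 66.6) of 2343 on the rest of IV. A thresholded summit was found for 22 of 938 (2.35%, 1.48 to 3.53) and 96 of 2343 (4.10%, 3.33 to 4.98), with intervals that overlap slightly.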

How the data were processed

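Peak lists of 2 biological replicates of 1 group were used. Per the file listings deposited with the samples, candidates were called in each replicate and again on the pooled replicates to feed the IDR procedure, and the thresholded list is what passed it. The sources used here give no aligner, peak caller, IDR threshold or handling of reads with several matches, and depth is unknown. The signal value is a score given by the authors' peak caller and served only for ranking inside 1 list. The authors' q-values are deposited as −log10 and lay between 0.0543 and 2.73 for the 1057 peaks. Every candidate list has 30000 peaks, so it includes background, and density in 1 place depends on the others. The median peak was 484 bp wide. The ce10 lists entered only an alternative.

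Gene positions came from Ensembl, RNA gene names and sequence from RefSeq, both for WBcel235. A promoter window spanned 1000 bp before to 200 bp after the 5′ end of a protein-coding gene. GC content was taken over 250 bp on either side of a base. Intervals are exact at 95% (Clopper-Pearson for shares, Poisson for densities) and cover counting error only. No test between groups or over peaks was made. Calculations used Python 3.11.15, numpy 2.4.6, pandas 2.3.3 and scipy 1.17.1 and were tested on simulated data.

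Named peaks were the 15 strongest thresholded ones of the regions, the 3 strongest on the rest of IV, thresholded ones within 250 bp of a piRNA gene and the 3 whose rank differed most between replicates. Named bins were the 3 with most piRNA genes and those with most peaks in each region. Named pathway genes were the 12 with the strongest candidate summit. The summits below the thresholded list and the other tRNA peaks were named after their values were seen. The members and lists were chosen with earlier results of these data known.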

Additional observations from a re-analysis of the deposited data

How the results depend on the processing

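Depth per sample and the placement of reads in repeats are unknown, and 2 replicates of 1 group give little measure of spread. No paired analysis was possible because there is 1 group. The density ratio of the regions to the rest of IV (0.569) kept its direction throughout: 0.580 to 0.591 in the separate replicates, 0.535 and 0.638 with region limits moved 0.25 Mb inwards and outwards, 0.582 with overlapping peaks merged, 0.607 for the 10000 strongest peaks and 0.559 without peaks at other RNA genes. It was 0.771 both weighted by GC class and in steps of 1% GC, and 0.949 without bases near piRNA genes. The last value compares bases at unlike distances from piRNA genes. The ratio of summits near piRNA genes to their share of bases (0.340) was 0.383 to 0.395 in the replicates, 0.195 for the 10000 strongest peaks, 0.226 at 100 bp and 0.508 at 500 bp. Weighted by GC class it was 0.726, in steps of 1% 0.782, by gene feature 0.377 and by both 0.739, so base composition moved it most. The Spearman correlation of piRNA genes and summits over bins was -0.50 for the 10000 strongest peaks, -0.53 and -0.65 in bins of 25 and 100 kb, and -0.52 within the regions.

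Results near no difference were not stable. The median percentile difference (1.29) was -0.168 to 1.53 in the replicates, and 3.58 and -1.84 with limits moved inwards and outwards. The ratio of thresholded shares (0.982) was 1.05 and 0.864 with limits moved inwards and outwards. It was 0.894 merged, 0.889 without other RNA genes and 0.783 for the 440 strongest. In the replicate lists the 881 strongest peaks of each stood in for the thresholded ones, and the ratio was 0.955 to 0.982. The difference in replicate overlap (0.159 percentage points) was 0.811 inwards, -1.79 outwards, -0.826 for the 10000 strongest peaks and 1.87 with reciprocal overlap of 50%. The cause was not tested. The pathway count stayed at 1 with promoter windows. GC and feature weightings and the left-out bases were added after the data were seen.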

Other observations

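The longest stretches of chromosome IV between neighbouring candidate summits were in the right region. IV:15289710-15441020 ran for 151 kb with 585 piRNA genes and 15 protein-coding genes, and the replicate lists held 4 and 2 summits there. The next in that region ran for 99.5 kb with 209 piRNA genes and 93.6 kb with 381. In the middle part of the chromosome the longest ran for 69.4 kb with 8 piRNA genes, and on the left part for 31.4 kb with 1. Stretches at the ends of the chromosome are not among these. At the left end IV:1-50000 held no pooled summit (2 and 0 in the replicates), with 0 piRNA genes and 8 protein-coding genes. The median gap between summits was 1599 bp in the right region, 1710 bp in the central region and 1603 bp on the left part. These medians lie closer together than the longest gaps do.

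The longest empty stretch of the central region, IV:5225368-5310570, ran for 85.2 kb with 50 piRNA genes and 26 protein-coding genes. It holds 4 genes for major sperm protein, the cytoskeletal protein of nematode sperm (msp-19, msp-51, msp-58 and msp-113), and the pathway gene slfl-4. Major sperm protein genes are near-identical copies, and the handling of reads that match several copies was not tested.

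Candidate summits fell inside a piRNA gene 9 times, at ranks 3703 (21ur-7477) to 28459 (21ur-5908). The strongest had a replicate 2 peak at rank 1728 and none in replicate 1.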
